A study of Mus musculus with 2 samples.

Results

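The Zic genes encode transcription factors with zinc fingers related to those of the Gli proteins, and 4 of them, *Zic1*, *Zic2*, *Zic4* and *Zic5*, were followed here by name among the 27998 genes counted in both libraries. All 4 were found and kept, whatever their level. Among the cells placed in 1 class, the measured levels were highest in neural-like cells and lower in the pigment-side part of them. Ectoderm-like and erythrocyte-like cells of either library had 0 to 3 UMIs a gene. For *Zic2*, the small ectoderm-like, neural crest-like and macrophage-like classes held too few UMIs to resolve that rank. The same held for *Zic4* against the KO macrophage-like cells. Between the libraries, *Zic1* was 1.17-fold higher in the neural-like cells from the KO-labelled library and 0.378 times as high in its mesenchyme-like cells, and *Zic2* was 0.451 times as high in its neural-like cells.

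Zic proteins act early in the neural plate, where they hold back differentiation and help to set up the dorsal neural tube and the neural crest, and several also act in head mesenchyme and somites. In the eye, *Zic2* is best known for the later choice of retinal axons at the optic chiasm, and human *ZIC2* mutations cause failed division of the forebrain. *Zic1* and *Zic4* are linked to cerebellar malformation, and loss of *Zic5* in mice affects neural tube closure and neural crest.

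Cells came from the ocular area of 1 wild type (WT) embryo and 1 *Mab21l1*-null (KO) embryo, both C57BL/6J and both at the 26 somite stage (E9.25), with both optic areas of an embryo pooled. *Mab21l1* is a gene needed in the surface ectoderm for the lens. Each embryo gave 1 library made with 10x Genomics 3′ chemistry, in which each captured transcript carries a cell barcode and a unique molecular identifier (UMI). With 1 embryo per genotype there is no replicate, so no test was made, no difference has a replicate check, and embryo, library and genotype cannot be told apart.

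The kept cells numbered 1680 in the library labelled WT, with 41880035 UMIs and a median of 21037 per cell, and 2404 in the library labelled KO, with 52430844 UMIs and a median of 18135. Levels are UMIs per 1000000 UMIs of the class (CPM). Brackets give exact 95% intervals: Poisson for levels, Clopper-Pearson for shares of cells and conditional on the summed UMIs for ratios of levels. All cover counting error only. Those for levels and ratios of levels treat UMIs as independent, and are too narrow where few cells hold many UMIs. For co-detection ratios the brackets are the interval of the share with both genes, divided by the product of the single shares, which is taken as fixed. Over all cells *Mab21l1* RNA was counted at 20.3 CPM in the library labelled WT and at a higher 32.5 CPM in the library labelled KO. In neural-like cells it was at 28.2 and 48.1 CPM. The cause of these higher values was not tested. In ectoderm-like cells it was at 77.7 CPM [60.4, 98.3] and 38.5 CPM [22.8, 60.9] (ratio 0.496 [0.278, 0.844]), the direction the labels give. The libraries are named by their labels. *Xist*, expressed from an inactive X chromosome, was detected in 93.7% and 94.4% of cells, with 0 UMIs of 4 Y-linked genes in either library. The libraries shared 15 barcode sequences. Scrublet marked 19 WT and 30 KO cells as doublets, of which 18 and 29 passed the gates of more than 1 class and so were in none of the classes below. Clusters whose share of cells differed at least 3-fold between libraries held 14.1% of WT and 5.37% of KO cells.

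Classes were formed by the number of marker genes with a UMI in a cell, and are called "-like" because no annotation of cells was used. Neural-like cells had at least 3 of 8 neural markers (among them *Sox1*, *Sox2*, *Sox3*, *Lhx2*, *Rax*, *Six6* and *Fezf1*) or 3 of 4 pigment markers, and numbered 803 in WT and 1151 in KO. Mesenchyme-like cells had at least 4 of 7 markers (*Col3a1*, *Prrx1*, *Prrx2*, *Twist1*, *Pdgfra*, *Col1a2*, *Foxc1*) and numbered 470 and 733. Within the neural-like cells, those passing 1 territory gate alone were called retina-side (all of 4 markers, among them *Rax*, *Six6* and *Lhx2*, 61 and 125 cells), pigment-side (at least 3 of *Mitf*, *Pmel*, *Tyrp1* and *Dct*, 84 and 95), ventral (at least 2 of *Pax2*, *Vax1* and *Vax2*, 169 and 264) or forebrain (at least 3 of 10 markers, 66 and 65). Many cells sat at a gate's edge: 207 WT and 261 KO cells had exactly 3 neural markers, and 92 and 141 had 1 fewer. Of the forebrain markers, *Fezf2*, *Dmrta2*, *Fezf1*, *Wnt8b* and *Lhx5* were higher there than in other cells of both libraries. *Emx2* was not, at 2.38 against 8.96 CPM in WT and 2.54 against 11.2 in KO, and *Barhl2* and *Nkx2-1* were at 0 there.

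The 4 genes lie as neighbouring pairs on opposite strands (GENCODE M21, GRCm38, where all 4 identifiers matched). *Zic1* is at chr9:91358058-91365810 on the minus strand and *Zic4* at chr9:91362413-91389348 on the plus strand, with gene bodies that overlap by 3398 bases and exons that overlap by 60 bases. Their 3′ ends, where these reads are made, lie 31290 bases apart, and the last 1000 bases of neither gene hold an exon of the other. *Zic5* at chr14:122456795-122465677 on the minus strand and *Zic2* at chr14:122475435-122479852 on the plus strand do not overlap, and their starts lie 9758 bases apart. The RefSeq promoters (GRCm38.p6, 250 bases before to 50 after a start) are shown for the 3 members with an entry, because the levels of the genes are compared by pair. Capitals mark matches on either strand to any of 6 motifs, which are the CCAAT box, the TATA box read as TATAAA, the GC box read as GGGCGG, the homeodomain core TAATTA, the Zic-bound CCTGCTG and the Gli-bound GACCACCCA.
Zic1 promoter, chr9:91365719-91366018, minus strand: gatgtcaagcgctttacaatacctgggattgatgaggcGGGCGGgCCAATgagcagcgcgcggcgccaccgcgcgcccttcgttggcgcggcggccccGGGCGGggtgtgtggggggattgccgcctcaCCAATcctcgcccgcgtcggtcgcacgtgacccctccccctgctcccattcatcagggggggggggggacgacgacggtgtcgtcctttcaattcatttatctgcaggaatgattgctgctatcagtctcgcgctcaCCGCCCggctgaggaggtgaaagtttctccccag
Zic4 promoter, chr9:91368722-91369021, plus strand: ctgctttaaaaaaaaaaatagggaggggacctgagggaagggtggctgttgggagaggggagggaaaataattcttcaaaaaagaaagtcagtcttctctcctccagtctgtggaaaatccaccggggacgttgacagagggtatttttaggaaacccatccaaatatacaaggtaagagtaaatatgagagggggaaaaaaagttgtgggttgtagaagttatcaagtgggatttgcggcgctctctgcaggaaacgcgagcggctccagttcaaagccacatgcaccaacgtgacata
Zic5 promoter, chr14:122465609-122465908, minus strand: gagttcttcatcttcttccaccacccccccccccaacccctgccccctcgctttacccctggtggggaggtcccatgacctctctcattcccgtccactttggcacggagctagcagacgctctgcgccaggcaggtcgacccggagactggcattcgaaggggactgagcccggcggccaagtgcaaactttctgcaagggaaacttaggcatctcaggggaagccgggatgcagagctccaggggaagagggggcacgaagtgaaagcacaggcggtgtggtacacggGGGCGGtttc
The *Zic1* window held 2 CCAAT and 3 GGGCGG matches, the *Zic5* window 1 GGGCGG match, and the *Zic4* window no match to any of the 6. CCAAT was found in 37.4% and GGGCGG in 35.7% of 32841 mouse promoter windows, TATAAA in 13.6%, TAATTA in 5.29%, CCTGCTG in 10.5% and GACCACCCA in 0.253%. GC made up 65.3% of the *Zic1* window and 62.7% of the *Zic5* window, above the median of 52.7% over all windows, and 46.0% of the *Zic4* window. The *Zic4* window lies inside the gene body, which begins at 91362413 in GENCODE and at 91365631 in RefSeq. It is therefore not at the outermost start of *Zic4* in either, and no window at that start is shown.

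*Zic1* followed a graded order over the gated neural territories, and the order was the same in both libraries. In WT it measured 141 CPM [121, 164] in forebrain-like, 111 [102, 121] in ventral, 60.2 [49.0, 73.2] in retina-side and 2.05 [0.666, 4.78] in pigment-side cells. In KO the same classes measured 176 [153, 202], 133 [124, 143], 71.0 [61.7, 81.4] and 2.91 [1.17, 5.99]. Each neighbouring step exceeded counting error: the forebrain-like level was 1.27 times [1.06, 1.51] the ventral level in WT and 1.32 times [1.13, 1.54] in KO, and the ventral level was 1.85 times [1.49, 2.32] and 1.87 times [1.61, 2.2] the retina-side level. The fall from retina-side to pigment-side cells was the steepest, at 29.4-fold [12.2, 92.4] in WT and 24.4-fold [11.7, 61.5] in KO. Only 5 WT and 7 KO UMIs were counted in the pigment-side cells, while those cells held 2439647 and 2407194 UMIs in all. The forebrain-like over ventral step depended on how cells were grouped. In clusters made without Zic genes, the one led by *Fezf2* had *Zic1* at 158 CPM in WT and 197 in KO. A cluster led by *Cp*, with *Pax2* among its leading genes, had more, at 196 and 212. Another with *Pax2*, led by *Vax2*, had less, at 66.4 and 75.6.

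*Zic4*, the partner of *Zic1* on chromosome 9, gave the same order of gated territories. It measured 23.0 CPM [15.4, 33.1] in forebrain-like, 14.6 [11.4, 18.5] in ventral, 4.21 [1.69, 8.68] in retina-side and 1.64 [0.447, 4.20] in pigment-side cells of WT. In KO it measured 30.5 [21.4, 42.2], 18.2 [15, 22.0], 7.59 [4.75, 11.5] and 0 in 2407194 UMIs, which allows up to 1.25 CPM at a floor of 3 UMIs (95% interval up to 1.53 CPM). The step from ventral to retina-side cells was 3.48-fold [1.60, 8.97] in WT and 2.40-fold [1.51, 3.99] in KO. In the clusters led by *Fezf2*, by *Cp* and by *Vax2*, *Zic4* was at 24.6, 30.2 and 6.44 CPM in WT. The KO values were 29.9, 33.2 and 9.27 CPM. In WT the forebrain-like and ventral levels (ratio 1.57 [0.982, 2.46]) and the retina-side and pigment-side levels (2.57 [0.653, 12.0]) did not differ beyond counting error. In KO the forebrain-like level was 1.67 times [1.11, 2.45] the ventral one. The retina-side level in KO was 6.09 times the pigment-side floor of 3 UMIs, a value given without an interval. Pigment-side *Zic4*, with 4 WT and 0 KO UMIs, did not differ between the libraries beyond counting error (ratio 0 [0, 1.535]).

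*Zic5* was spread more evenly over the territories that are not pigment-side. It measured 54.8 CPM [42.6, 69.3] in forebrain-like, 39.2 [33.8, 45.3] in ventral, 34.3 [26.0, 44.4] in retina-side and 8.61 [5.33, 13.2] in pigment-side cells of WT, and 53.3 [41.0, 68.2], 37.7 [32.9, 42.9], 45.9 [38.4, 54.4] and 10.4 [6.72, 15.3] in KO. The forebrain-like level was 1.40 times [1.04, 1.85] the ventral level in WT and 1.42 times [1.05, 1.88] in KO, and ventral and retina-side levels did not differ beyond counting error in either (1.14 [0.846, 1.57] and 0.821 [0.660, 1.03]). The step to pigment-side cells, 3.98-fold [2.38, 6.92] in WT and 4.42-fold [2.87, 7.07] in KO, had intervals that did not overlap those of the *Zic1* step. At 10000 UMIs a cell, 4.88% [1.35, 12.0] of WT and 4.82% [1.33, 11.9] of KO pigment-side cells had a *Zic5* UMI, within the intervals of endothelium-like cells (3.28% [0.400, 11.4] and 2.25% [0.273, 7.88]). By CPM, the pigment-side levels lay above the upper limits of endothelium-like cells (7.98 in WT and 7.42 in KO), though the intervals overlapped. Their intervals lay wholly above those of erythrocyte-like cells, which reached 4.35 and 2.08 CPM.

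*Zic2*, the partner of *Zic5* on chromosome 14, was sparse. In WT it measured 8.73 CPM [4.36, 15.6] from 11 UMIs in forebrain-like, 3.82 [2.26, 6.03] from 18 in ventral, 4.21 [1.69, 8.68] from 7 in retina-side and 0 in pigment-side cells, where 0 allows up to 1.23 CPM. In KO it measured 2.54 [0.524, 7.42] from 3 UMIs, 2.32 [1.27, 3.90] from 14, 1.38 [0.376, 3.53] from 4 and 0.415 [0.0105, 2.32] from 1. No step between forebrain-like, ventral and retina-side cells exceeded counting error in either library. The order of *Zic2* over these territories was therefore not resolved at this depth.

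**Figure D1:**
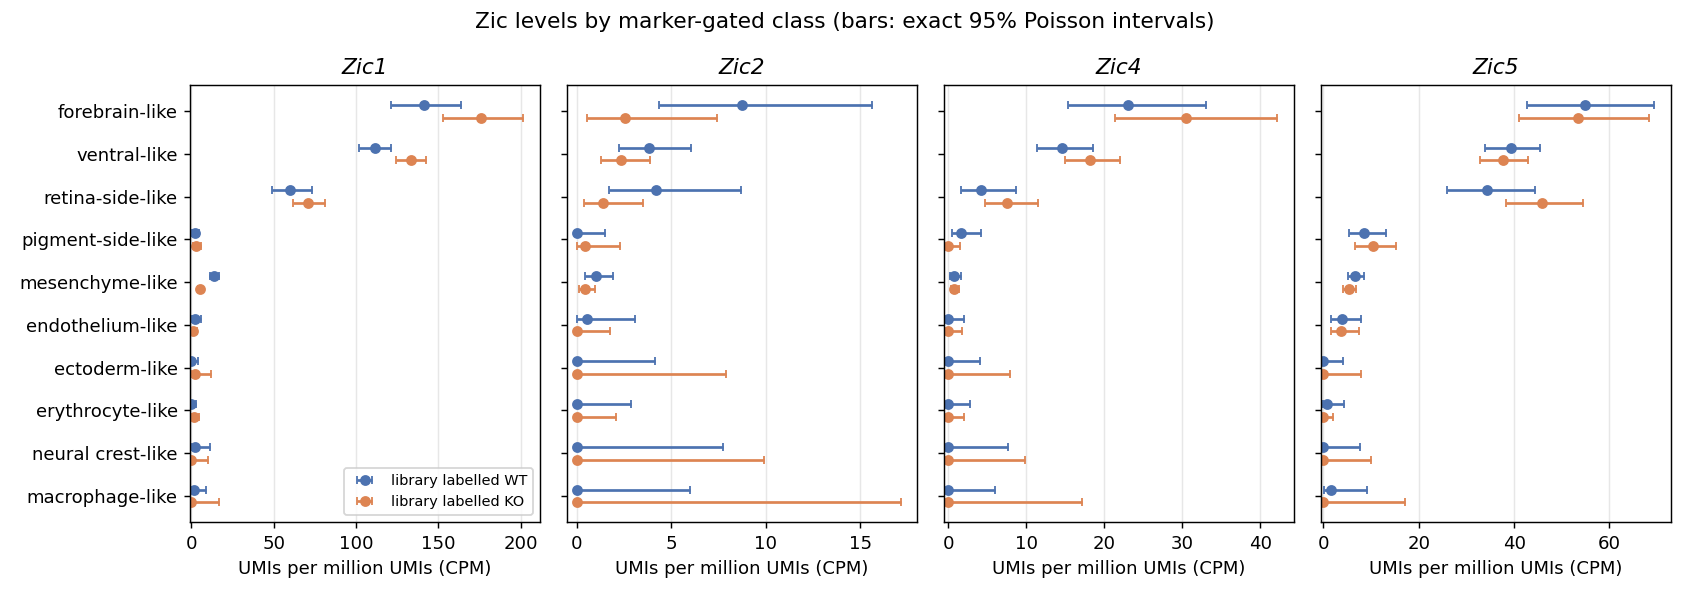
Level of each Zic gene in UMIs per 1000000 UMIs (x axis, its own scale in each panel) by marker-gated class (y axis), with points for the library labelled WT (blue) and the library labelled KO (orange) and horizontal lines for exact 95% Poisson intervals. *Zic1* falls from 141 and 176 CPM in forebrain-like cells to 2.05 and 2.91 CPM in pigment-side cells, and *Zic5* from 54.8 and 53.3 to 8.61 and 10.4 CPM.

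Neural-like cells were also split by 1 marker at a time. *Zic1* measured 101 CPM in cells with a UMI of *Pax2*, a ventral optic vesicle and stalk factor, and 40.5 CPM in cells without, a ratio of 2.48 [2.14, 2.90] in WT, and 112 against 66.5 CPM, a ratio of 1.68 [1.51, 1.87], in KO. *Zic2*, *Zic4* and *Zic5* were also higher in *Pax2*-positive cells of WT, with ratios of 2.28 [1.14, 5.19], 1.77 [1.24, 2.59] and 1.60 [1.32, 1.96]. In KO those ratios were 2.31 [0.918, 7.48], 1.54 [1.16, 2.08] and 1.32 [1.13, 1.56], so that all but *Zic2* exceeded counting error. *Vax2*, the other common ventral marker, gave a smaller split of *Zic1* (1.14 [1.03, 1.26] in WT and 1.17 [1.07, 1.27] in KO) and ratios between 0.887 and 1.36 for the other 3 genes, all with intervals that include 1.

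Markers of the pigment side went with lower *Zic1*, *Zic4* and *Zic5* in both libraries. In cells with a UMI of *Dct*, a melanin enzyme gene, *Zic1* stood at 0.357 times [0.319, 0.399] its level in the other neural-like cells in WT and 0.367 times [0.331, 0.406] in KO, and *Zic4* at 0.320 [0.229, 0.437] and 0.309 [0.227, 0.414]. *Zic5* stood at 0.561 [0.481, 0.653] and 0.635 [0.551, 0.729]. *Zic2* was lower in *Dct*-positive cells of WT (0.311 [0.165, 0.549]) but not beyond counting error in KO (0.987 [0.506, 1.85]). *Rax*, a homeobox gene of the eye field, also marked lower *Zic1* and *Zic4* (ratios of 0.432 [0.392, 0.478] and 0.299 [0.232, 0.388] in WT, 0.519 [0.478, 0.565] and 0.385 [0.311, 0.480] in KO). These markers also define the territories, so the splits are another view of the same cells.

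Over the neural-like cells as a whole, *Zic1* summed to 1929 UMIs in WT and 2883 in KO, or 87.6 CPM [83.7, 91.6] and 102 CPM [98.4, 106]. The KO over WT ratio was 1.17 [1.10, 1.23], and it was above 1 in each territory: 1.25 [1.01, 1.53] in forebrain-like, 1.20 [1.07, 1.34] in ventral, 1.18 [0.925, 1.51] in retina-side and 1.42 [0.388, 5.67] in pigment-side cells. In cells passing several territory gates, which held 771 WT and 1090 KO *Zic1* UMIs, it was 1.07 [0.973, 1.17]. In those passing no territory gate it was 1.25 [1.09, 1.43]. The highest neural-like cell had 24 *Zic1* UMIs in WT and 29 in KO. The share of neural-like cells with a *Zic1* UMI was 62.9% [59.4, 66.2] in WT and 67.1% [64.3, 69.8] in KO. Thinned, it was 44.9% [41.3, 48.5] and 50.7% [47.7, 53.7]. At either depth the intervals of the libraries overlapped. *Zic4* went from 12.0 CPM [10.6, 13.6] to 13.8 [12.5, 15.3], a ratio of 1.15 [0.982, 1.35] that did not exceed counting error. It did so when cells were thinned (1.29 [1.01, 1.65]) and without the clusters that differed in share between the libraries (1.34 [1.13, 1.59]). *Zic5* measured 37.8 CPM [35.3, 40.4] and 39.0 [36.7, 41.4], a ratio of 1.03 [0.942, 1.13], with 1.34 [0.974, 1.86] in retina-side cells as the highest of its 4 territory ratios. In neural-like cells passing no territory gate (202 WT and 272 KO) *Zic5* was lower in KO, at 47.0 and 35.7 CPM, a ratio of 0.760 [0.609, 0.949]. In those passing several the ratio was 1.11 [0.960, 1.27]. None of these 3 genes passed 1.5-fold in the neural-like cells.

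*Zic2* was the exception. It summed to 83 UMIs in WT and 48 in KO, or 3.77 CPM [3.00, 4.67] and 1.70 CPM [1.25, 2.25], a KO over WT ratio of 0.451 [0.309, 0.651]. The share of neural-like cells with a *Zic2* UMI was 8.97% [7.08, 11.2] in WT and 4.08% [3.01, 5.39] in KO, and 4.38% [3.04, 6.10] and 1.57% [0.915, 2.50] once each cell was thinned to 10000 UMIs. The ratio was below 1 in the retina-side (0.327 [0.0703, 1.29]), ventral (0.608 [0.280, 1.29]) and forebrain-like cells (0.291 [0.0521, 1.10]), whose intervals each include 1. It was also below 1 in cells passing several territory gates (0.475 [0.265, 0.832]) or no territory gate (0.256 [0.0603, 0.846]). Without the clusters that differed in share between the libraries, the neural-like ratio was 0.469 [0.314, 0.692], as low as with them. Of the 4 members, 1 passed 1.5-fold in neural-like cells, where 3.01% of 11863 genes with at least 50 UMIs did so in either direction and 1.42% did so downward. Among genes with at least 50 but fewer than 200 UMIs, the range *Zic2* lies in, 11.4% of 2252 passed 1.5-fold. *Zic2* also passed 2-fold, as did 55 of all 11863 genes (0.464%). Of the 9611 genes with at least 200 UMIs 17 did so, so most of the 55 lay in the range of *Zic2*.

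In mesenchyme-like cells, *Zic1* summed to 125 UMIs in 52 of 470 WT cells and to 62 UMIs in 38 of 733 KO cells. The levels were 13.9 CPM [11.6, 16.6] and 5.26 CPM [4.03, 6.74], a KO over WT ratio of 0.378 [0.274, 0.517]. At 10000 UMIs a cell, 7.89% [5.53, 10.9] of WT and 2.89% [1.78, 4.44] of KO cells had a *Zic1* UMI. Erythrocyte-like cells, which should not make *Zic1*, had it in 0 of 36 WT cells, which at a floor of 3 cells allows a share of up to 8.33% (95% interval up to 9.74%), and in 3 of 50 KO cells, and in 0 and 2% of cells after thinning, with median depths of 32481 and 33458 UMIs before thinning against 19015 and 15609 in mesenchyme-like cells. The thinned shares of both libraries lay within the intervals of that background (0 to 9.74% in WT and 0.0506 to 10.6% in KO). The levels of 13.9 and 5.26 CPM lay above its upper bounds of 2.88 and 4.94 CPM. In KO, however, the mesenchymal interval, from 4.03 CPM, overlapped that of the background. *Zic1* was 1 of 2 members with at least 50 UMIs in mesenchyme-like cells, and it passed both 1.5-fold and 2-fold downward. Of 10383 genes, 3.97% passed 1.5-fold in either direction, 2.18% did so downward and 67 (0.645%) passed 2-fold. Among genes with at least 50 but fewer than 200 UMIs, the range *Zic1* lies in, 10.8% of 2729 passed 1.5-fold. Of the 7654 genes with at least 200 UMIs 18 passed 2-fold, so most of the 67 lay in the range of *Zic1*.

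The *Zic1* UMIs of the mesenchyme were held by few cells. In WT, 25 cells with at least 2 UMIs held 98 of the 125, or 78.4%, and the highest cell had 14. In KO, 10 such cells held 34 of the 62, or 54.8%, and the highest cell had 8. These cells had a median of 0 neural markers in both libraries and a median of 6 of 7 mesenchyme markers. Their median depth was 21144 UMIs in WT and 20492 in KO, against 18900 and 15533 in the other mesenchyme-like cells.

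**Figure D2:**
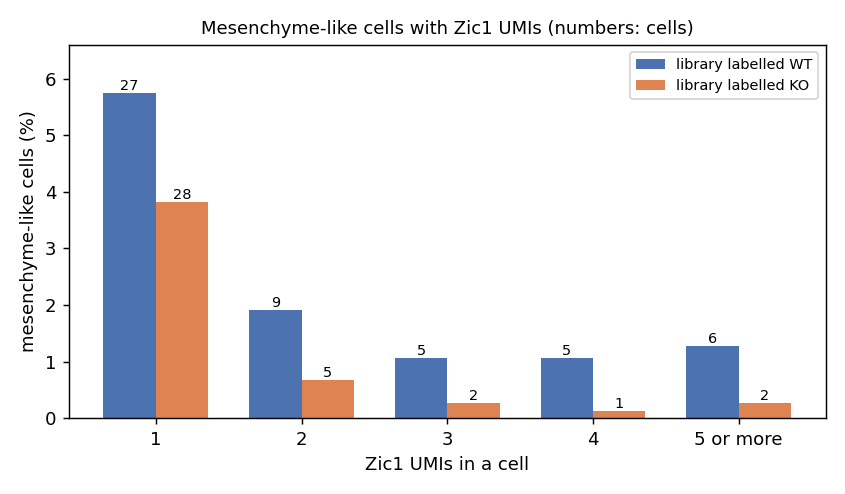
Share of mesenchyme-like cells (y axis, percent) by the number of *Zic1* UMIs in a cell (x axis, cells with 0 not drawn) in the library labelled WT (blue, 470 cells) and the library labelled KO (orange, 733 cells), with the number of cells over each bar. At 5 or more UMIs there are 6 WT and 2 KO cells, and at 1 UMI there are 27 and 28.

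The KO over WT ratio of mesenchymal *Zic1* took different values in parts of the mesenchyme. Cells were split by whether they had at least 2 of 3 periocular markers (among them *Foxc1* and *Foxc2*, the Foxc set), at least 2 of 4 frontonasal markers (among them *Alx1*, *Alx4* and *Tfap2b*, the Alx set), or both. In cells with the Foxc set alone (34 WT and 91 KO), *Zic1* measured 46.0 CPM [30.1, 67.4] in WT and 6.72 [3.07, 12.8] in KO, a ratio of 0.146 [0.0602, 0.321]. In cells with the Alx set alone (107 and 189), it measured 26.0 CPM [19.1, 34.4] and 4.19 [2.16, 7.31], a ratio of 0.161 [0.0780, 0.308]. In cells with both sets (316 and 415), it measured 7.01 [5.11, 9.37] and 5.64 [4.03, 7.69], a ratio of 0.806 [0.513, 1.26] that did not exceed counting error. The interval of this last ratio did not overlap those of the other two, but these intervals treat UMIs as independent. In WT, 14 cells held the 48 UMIs of the Alx set alone, the highest with 14, and 11 cells held the 26 of the Foxc set alone. The intervals are therefore too narrow to decide whether the parts differ. Cells with neither set (13 and 38) held 6 and 1 UMIs. The mesenchyme-like cells of the libraries were spread differently over clusters made without Zic genes. The largest held 290 WT and 341 KO mesenchyme-like cells, with *Zic1* at 19.1 CPM [15.9, 22.8] and 6.61 CPM [4.74, 8.97], a ratio of 0.346 [0.237, 0.496]. The next held 94 and 266, with *Zic1* at 1.68 CPM [0.347, 4.91] and 2.06 CPM [0.941, 3.91]. In this one and the other 3 mesenchyme clusters, where *Zic1* had 1 to 9 UMIs a library, the ratios ran from 0.540 to 2.48 with intervals that include 1. Those intervals also overlapped that of the largest cluster, so whether the ratio differs between clusters was not resolved.

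To see which mesenchyme these cells were, WT mesenchyme-like cells with at least 2 *Zic1* UMIs were compared with those with 0. The genes with the highest ratio were taken, among genes with at least 40 UMIs in the former. Their ratio was then read in KO, whose values did not enter the ranking. The rule was set after the data were seen, so the KO ratios are not an independent check. They rest on 10 KO cells with at least 2 *Zic1* UMIs. The 8 genes were *Tbx18*, *Arl4a*, *Akap12*, *Msx1*, *Hey1*, *Slc1a3*, *Klf6* and *Foxd1*, with WT ratios from 9.76 down to 3.35. In KO, *Hey1*, a Notch target, stood at 88.7 against 16.2 CPM, a ratio of 5.49 [3.23, 8.83], *Arl4a* at 2.93 [1.24, 5.93], *Klf6* at 2.61 [1.53, 4.18] and *Foxd1*, a forkhead factor of periocular and other mesenchyme, at 2.43 [1.40, 3.94]. The KO ratios of *Tbx18* (2.74 [0.548, 8.41], from 3 UMIs), *Akap12* (1.54 [0.834, 2.60]), *Msx1* (1.38 [0.906, 2.02]) and *Slc1a3* (1.29 [0.514, 2.69]) had intervals that include 1.

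Over all mesenchyme-like cells, the T-box gene *Tbx18*, first of these 8, stood at 16.1 CPM in WT and 6.53 in KO, a ratio of 0.405 [0.303, 0.537]. Of its 145 WT UMIs, 49 lay in the WT cells used to choose the 8 genes. Choosing genes by high levels in WT favours ratios below 1, so these ratios give no separate support for the *Zic1* difference. All 8 were below 1, from 0.405 to 0.962. *Foxd1* measured 53.3 and 34.7 CPM, a ratio of 0.651 [0.569, 0.744], and *Msx1* 93.3 and 89.7, a ratio of 0.962 [0.878, 1.06]. The Foxc set alone marked 34 of 470 WT and 91 of 733 KO cells, and the part of such shares in the *Zic1* difference was not tested.

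The other members were low in mesenchyme-like cells. *Zic5* summed to 60 WT and 63 KO UMIs, or 6.67 CPM [5.09, 8.59] and 5.34 CPM [4.10, 6.83], a ratio of 0.800 [0.553, 1.16]. Without the clusters that differed in share between the libraries, which include 1 mesenchyme cluster of 14 WT and 62 KO cells with 26.1 and 27.2 CPM of *Zic5*, that ratio was 0.565 [0.361, 0.877], past counting error and past 1.5-fold. *Zic2* had 9 and 5 UMIs and *Zic4* 7 and 9, too few for a ratio, and no mesenchyme-like cell had more than 1 UMI of either.

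In the other named classes, Zic RNA was sparse. All 4 genes were at 0 in the 48 ectoderm-like cells of WT, which held 888467 UMIs and allow up to 3.38 CPM, and the 31 ectoderm-like cells of KO had 1 UMI of *Zic1*. The ectoderm cluster, which held these cells and 10 WT and 17 KO cells outside the gate, had *Zic1* at 9.65 CPM [4.81, 17.3] and 8.40 CPM [3.63, 16.6], from 11 and 8 UMIs, and 1 or 2 UMIs of each other member per library. Neural crest-like cells (29 WT and 25 KO, chosen by markers of migrating crest such as *Sox10*) had 1 UMI of *Zic1* in WT and none of any member in KO, where 0 allows up to 8.07 CPM. Endothelium-like cells had 7 UMIs of *Zic5* in 63 WT cells and 8 in 91 KO cells, or 3.87 CPM [1.56, 7.98] and 3.77 [1.63, 7.42], with 4 and 2 UMIs of *Zic1*, 1 and 0 of *Zic2* and 0 of *Zic4*. Erythrocyte-like cells had 1 UMI of *Zic5* in WT, or 0.780 CPM [0.0198, 4.35], and 0 in KO, where the interval reaches 2.08 CPM, so the endothelial and erythrocyte intervals of *Zic5* overlapped in both libraries. Macrophage-like cells (17 and 7) had 1 UMI each of *Zic1* and *Zic5* in WT and none in KO. Cells outside every class were not poor in Zic RNA: those passing no gate (100 and 163) had *Zic1* at 52.7 and 58.2 CPM and *Zic5* at 14.2 and 17.6 CPM, and those passing several (114 and 153) had *Zic1* at 62.8 and 74.2 CPM and *Zic5* at 35.0 and 30.1 CPM.

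Within neural-like cells, *Zic1*, *Zic4* and *Zic5* were counted in the same cells more often than the product of their single shares. In WT, *Zic1* and *Zic4* were both counted in 163 of 803 cells, 20.3% [17.6, 23.3], against a product of 13.8%, and in KO in 245 of 1151 cells, 21.3% [18.9, 23.8], against 15.4%. Of the cells with *Zic4*, 92.6% in WT and 92.8% in KO also had *Zic1*, while 54.5% and 59.4% of the cells without *Zic4* did. Co-detection also depends on the depth of a cell, so each cell was also thinned to 10000 UMIs, leaving out 50 WT and 66 KO cells. The observed share was then 1.78 times [1.40, 2.23] the product in WT and 1.57 times [1.31, 1.85] in KO.

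The other pairs gave the following ratios. At the thinned depth, *Zic1* with *Zic5* stood at 1.43 times [1.22, 1.66] the product in WT and 1.20 times [1.06, 1.35] in KO. *Zic4* with *Zic5* stood at 1.72 times [1.26, 2.30] in WT and 1.12 times [0.843, 1.45] in KO. *Zic2* with *Zic5*, the neighbours on chromosome 14, stood at 1.55 times [0.870, 2.54] in WT and 1.09 times [0.402, 2.37] in KO, from 15 and 6 cells with both, and *Zic2* with *Zic1* at 1.28 times [0.776, 1.99] and 0.928 times [0.401, 1.82]. *Zic2* with *Zic4* stood at 1.88 times [0.757, 3.85] and 1.70 times [0.464, 4.34], from 7 and 4 cells with both. No pair with *Zic2* exceeded counting error at this depth in either library.

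After thinning, the interval of every pair ratio included 1 among the ventral cells or the forebrain-like cells taken alone. In ventral cells, *Zic1* with *Zic4* stood at 1.41 times [0.853, 2.16] the product in WT and 1.33 times [0.906, 1.86] in KO. Within forebrain-like cells the pair stood at 1.41 times [0.666, 2.50] and 1.32 times [0.758, 2.05]. Because these brackets take the product as fixed, they do not decide whether the genes went together within a territory. Thinned, *Zic1* was counted in 78.3% of WT ventral cells with *Zic4* and 51.8% of those without. The KO ventral shares were 78.4% and 55.7%. In forebrain-like cells they were 81.8% and 52.9% in WT and 82.4% and 54.55% in KO. In retina-side cells of KO, where 9 cells had *Zic4*, they were 44.4% and 44.6%. In WT 1 retina-side cell had *Zic4*, and it had no *Zic1* UMI. In mesenchyme-like cells, *Zic1* and *Zic5* were both counted in 18 WT cells, 3.7 times [2.21, 5.78] the product, and in 7 KO cells, 2.94 times [1.18, 6.02], and thinned at 4.96 times [2.28, 9.33] and 4.77 times [1.30, 12.2]. Of the WT neural-like cells, 188 had none of the 4 genes and 21 had all 4. In KO, 240 had none and 13 had all 4, and after thinning 4 WT cells and 0 KO cells had all 4.

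**Figure D3:**
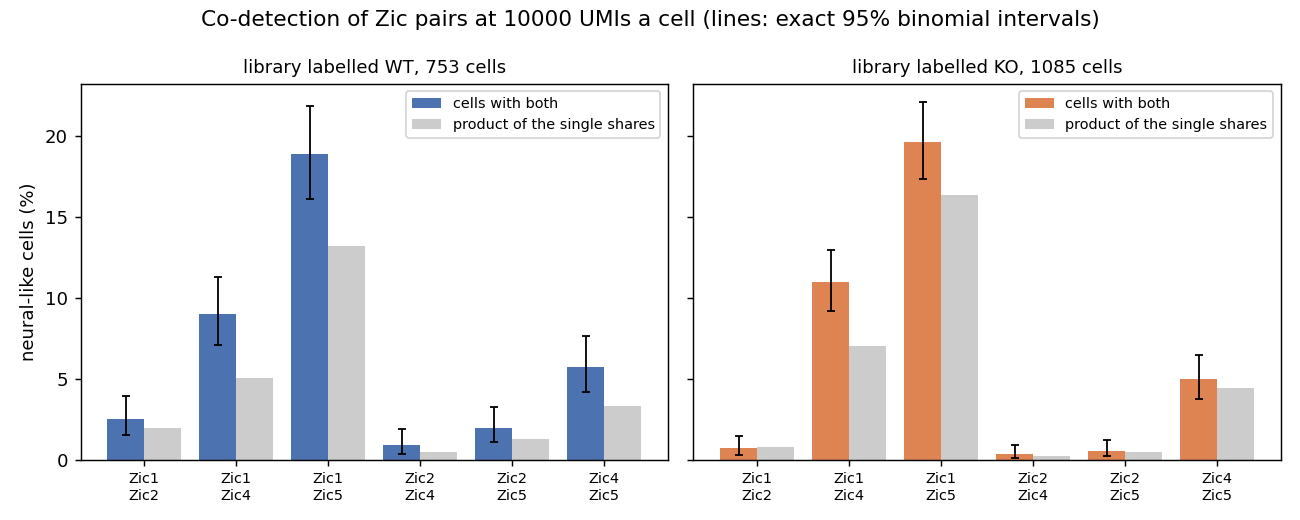
Share of neural-like cells, thinned to 10000 UMIs a cell, with a UMI of both genes of a pair (coloured bars, with lines for exact 95% binomial intervals) beside the product of the shares of each gene (grey bars), for 753 WT-labelled and 1085 KO-labelled cells. The y axis starts at 0 and is in percent of cells. *Zic1* with *Zic4* is at 1.78 and 1.57 times its grey bar.

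Across neural-like cells, log-scaled levels of *Zic1* and *Zic4* had a Pearson correlation of 0.45 over 803 WT cells and 0.42 over 1151 KO cells, the highest among member pairs. *Zic1* with *Zic5* had 0.34 and 0.22, *Zic4* with *Zic5* 0.29 and 0.08, and the pairs with *Zic2* 0.08 to 0.11 in WT and 0.02 to 0.04 in KO. Cells of 1 library share its embryo, depth and background, so these values are descriptions, and those of *Zic2*, which few cells hold, are too weak to read.

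The 5 genes with the highest correlation with *Zic1* in WT were *Pax2* (0.48), *Ptn*, a secreted growth factor gene (0.47), *Zfp36l1*, which encodes an RNA-decay factor (0.46), *Vwc2*, a secreted BMP antagonist gene (0.45), and *Cp*, which encodes ceruloplasmin (0.42). In KO the same genes had 0.36, 0.50, 0.47, 0.39 and 0.38. *Zic4* shared *Zfp36l1*, *Vwc2* and *Cp* with *Zic1* among its 5 highest, beside the ventral neural homeobox gene *Nkx6-1* and *Mkrn1*, with 0.29 to 0.36 in WT and 0.17 to 0.25 in KO. *Zic5* had *Zfp36l1*, *Sox2*, *Xist*, *Pax2* and *Sox11*, with 0.25 to 0.31 in WT and 0.15 to 0.23 in KO. The 5 genes chosen for *Zic2* in WT (*Dr1*, *Sfswap*, *Zfp626*, *Zfp263* and *Nisch*, at most 0.18) had at most 0.06 in KO. Among the territory markers, *Dct* had -0.40 and -0.38 with *Zic1* and *Pmel* had -0.34 and -0.34.

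**Figure D4:**
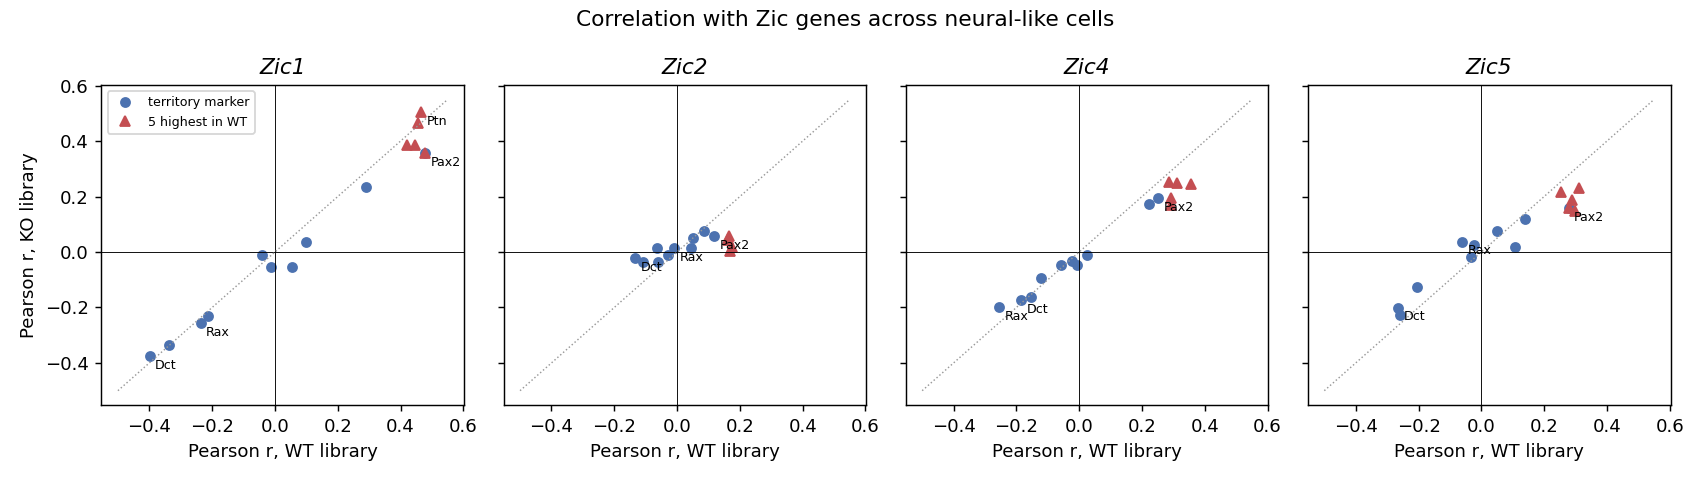
Pearson correlation across neural-like cells with each Zic gene (1 panel each) in the library labelled WT (x axis, 803 cells) and the library labelled KO (y axis, 1151 cells), for 10 territory markers (blue circles) and the 5 genes highest in WT (red triangles), with the dotted line at equal values. For *Zic1*, *Pax2* is at 0.48 and 0.36 and *Dct* at -0.40 and -0.38, and for *Zic2* no triangle is above 0.06 on the y axis.

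Over 25 sums by class and library with at least 20 cells each, the genes whose profile was most like that of *Zic1* were *Fat3*, *Cdh20*, *Stmn3*, *1810022K09Rik* and *Myb* (Pearson 0.88 to 0.85 on log2(CPM + 1)). For *Zic4* they were *Sox1*, *Miat*, *Elavl3*, *Irs4* and *E530001K10Rik* (0.94 to 0.91), and *Miat*, *Elavl3* and *E530001K10Rik* were also among the 5 of *Zic2*, with *Ptprz1* and *Dock3* (0.82 to 0.79). For *Zic5* they were *Stmn3*, *Cacna2d1*, *1810022K09Rik*, *Cdca8* and *Higd1a* (0.92 to 0.89). The members themselves correlated at 0.79 (*Zic1* with *Zic2*) to 0.91 (*Zic1* with *Zic5*) over the same sums. These sums share libraries and depth, and which genes came first depended on the measure: by rank correlation 0 of the 5 stayed for *Zic1* and *Zic4*, 1 for *Zic2* and 3 for *Zic5*.

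Of 24 genes of the dorsal midline and of neural crest specification, the settings in which Zic proteins are best known, 9 had at least 50 UMIs in neural-like cells, and none of these passed 1.5-fold. Their median KO over WT log2 ratio was -0.02, beside 0.01 over all 11863 genes. *Sox9*, a crest and progenitor factor, measured 33.2 and 40.2 CPM, a ratio of 1.21 [1.10, 1.33], *Wnt8b*, a dorsal forebrain signal, 5.0 and 4.50, a ratio of 0.900 [0.692, 1.17], and *Bmp7* 41.9 and 41.2, a ratio of 0.983 [0.901, 1.07]. In mesenchyme-like cells 13 of the 24 were counted, and 3 passed 1.5-fold, all lower in KO: *Lmx1b*, a homeobox gene of periocular mesenchyme (7.78 and 3.90 CPM, ratio 0.501 [0.338, 0.737]), the Wnt potentiator *Rspo3* (9.89 and 5.68, 0.574 [0.412, 0.797]) and *Msx2* (26.9 and 16.1, 0.599 [0.492, 0.727]). Their median log2 ratio was -0.07, beside 0.00 over all 10383 genes.

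The Gli and Glis genes encode the zinc finger relatives of the Zic proteins, and they were listed with hedgehog pathway genes and with *Mdfi* and *Mdfic*. Of these 14, 13 were counted in neural-like cells, and 1, *Glis1*, passed 1.5-fold, at 1.77 and 1.06 CPM (39 and 30 UMIs, ratio 0.600 [0.360, 0.990]). *Gli3*, the main Gli repressor, measured 48.0 and 44.1 CPM (0.918 [0.845, 0.997]), *Gli2* 18.7 and 19.5 (1.05 [0.920, 1.19]) and the hedgehog target *Ptch1* 24.3 and 23.4 (0.963 [0.858, 1.08]). In mesenchyme-like cells 11 were counted, and 1 passed 1.5-fold, *Hhip*, a hedgehog-binding inhibitor, at 1.67 and 3.31 CPM (15 and 39 UMIs, ratio 1.98 [1.07, 3.87]). *Gli1* there measured 19.1 and 13.1 CPM (0.687 [0.549, 0.859]), short of 1.5-fold. The shares of these lists past 1.5-fold, read beside the 3.01% and 3.97% of all genes, are counts of 0 to 3 genes from 1 embryo per genotype.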

How the data were processed

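Single cells of the ocular area of 1 WT and 1 *Mab21l1*-null embryo were profiled by 10x 3′ sequencing. Per the study's methods, the authors counted UMIs with Cell Ranger 2.2 on mm10 (GRCm38) and combined them by Cell Ranger aggr, a step that may downsample reads of the deeper library. The deposited values are whole-number UMI counts per gene and cell, not scaled per cell.

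The 4 members, the marker lists and the gene lists were chosen with earlier results of these data known, and the gate minimums and the rule for the genes of *Zic1* mesenchymal cells were set after seeing the data. The minimums not given above were 4 of 7 markers for ectoderm-like and endothelium-like cells, 5 of 7 for erythrocyte-like, 3 of 6 for neural crest-like and 3 of 7 for macrophage-like cells, and cells passing several of these gates stayed out of every class. The cells kept had 1500 to 8000 genes and no more than 5% of UMIs from mitochondrial genes (the methods write the limit as 0.05%, read here as a fraction). Besides the members, the genes named are the gate markers, genes of both fixed lists with at least 50 UMIs in the class, *Mab21l1*, sex genes and, for each member, the 5 genes with the highest profile correlation (at least 200 UMIs) and the 5 with the highest correlation across WT neural-like cells (a UMI in at least 10% of them). Other genes of the family, which the rule also covers, and some gate markers are not reported here. The *Zic1* mesenchymal genes and *Tbx18* were chosen after their values were seen.

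With 1 library per genotype no test was run. UMI sums were divided by the UMIs of the class and multiplied by 1000000, and a change of 1.5-fold or 2-fold between libraries is a description. Correlations used log1p of UMIs per 10000. Thinning drew 10000 UMIs per cell without replacement. For the alternatives, cells of both libraries were clustered without Zic genes (leidenalg 0.10.2, 2000 variable genes, 40 principal components, 20 neighbours, resolution 1), and doublets were called with Scrublet in scanpy 1.11.5 (expected rate 0.05, score above 0.25) but kept in the main values. The other alternatives were a stricter gate, no mitochondrial limit, a mean over cells, a pseudocount, other fold and UMI minimums, and another profile correlation. Leaving out clusters that differ 3-fold in share and leaving out shared barcodes were added after seeing the data. The tools were scikit-learn 1.9.0, matplotlib 3.10.9, pandas 2.3.3, scipy 1.17.1 and numpy 2.4.6 under Python 3.11.15. The intervals of levels and of ratios of levels, and the thinning, were tested on simulated counts with independent UMIs. Those counts did not cover UMIs held by few cells or the brackets of co-detection ratios. The annotation was GENCODE M21, which may not be the one used for counting, and Cell Ranger counts reads on the strand of a gene.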

Additional observations from a re-analysis of the deposited data

Results flagged for a closer look

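The KO over WT ratio of *Zic1* went opposite ways in the neural-like and mesenchyme-like cells, at 1.17 [1.10, 1.23] and 0.378 [0.274, 0.517], intervals that lie on either side of 1. These intervals treat UMIs as independent and are too narrow where few cells hold many. The shares of neural-like cells with a *Zic1* UMI had intervals that overlapped between the libraries. The ratio of *Zic5* was 1.03 [0.942, 1.13] in neural-like and 0.800 [0.553, 1.16] in mesenchyme-like cells, intervals that both include 1. Neither difference between classes was tested, because each library comes from 1 embryo.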

How the results depend on the processing

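No paired analysis was possible because each genotype has 1 library, and no library could be left out for the same reason. The 6 KO over WT ratios compared (4 genes in neural-like cells, *Zic1* and *Zic5* in mesenchyme-like cells) stayed within their main intervals under 9 alternatives, from 1.12 to 1.23 for *Zic1*, 0.337 to 0.566 for *Zic2*, 1.03 to 1.34 for *Zic4* and 0.950 to 1.09 for *Zic5* in neural-like cells and from 0.278 to 0.420 for *Zic1* in mesenchyme-like cells. Removing doublets, counted among the alternatives, could not move any neural value, because 0 neural-like cells were marked. It took out 1 WT and 0 KO mesenchyme-like cells. The *Zic4* interval lay above 1 when thinned and without the clusters that differ in share. The ratio of *Zic5* in mesenchyme-like cells passed 1.5-fold without the clusters that differ in share, at 0.565. Of 84 level checks, 17 left the main interval. With classes by clusters, the neural levels in WT and KO were 93.7 and 112 CPM for *Zic1*, 14.3 and 15.5 for *Zic4*, and 40.5 for *Zic5* in WT. With a stricter gate they were 95.7 and 111 for *Zic1* and 41.6 and 42.0 for *Zic5*. Thinned, they were 96.5 and 113 for *Zic1*, 13.9 and 18.0 for *Zic4*, and 40.8 for *Zic5* in WT. Without clusters that differ in share, WT neural *Zic1* was 82.1 and *Zic4* 10.3 CPM, and KO mesenchymal *Zic5* was 3.53 CPM. Of 56 co-detection checks, 5 left the main interval: *Zic1* with *Zic4* at 1.27 times the product under a stricter gate in WT and at 1.78 and 1.57 thinned, and *Zic1* with *Zic5* in WT at 1.12 and 1.43. The causes were not tested. The share of all genes past the fold fell from 3.01% to 1.05% in neural-like and from 3.97% to 1.52% in mesenchyme-like cells with at least 200 UMIs, and to 0.464% and 0.645% at 2-fold. Of the 5 profile genes of *Zic1*, *Zic2*, *Zic4* and *Zic5*, 3, 3, 2 and 1 stayed with a pseudocount of 10 CPM, and 0, 1, 0 and 3 by rank correlation. The sparsest gene was *Zic2*, with 83 and 48 UMIs in all neural-like cells.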
